A study of Mus musculus with 10 samples.

Results

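The genes described here make, process or control pulmonary surfactant in alveolar type 2 cells. They were taken by symbol: Sftpa1, Sftpb, Sftpc, Sftpd, Abca3, Lamp3, Napsa, Slc34a2, Lpcat1 and Etv5. All probe sets that the platform annotation gives 1 of these symbols were used, 20 of the 45037 probe sets other than controls, and they represent 9 of the 10 genes. Lamp3, a membrane glycoprotein of lamellar bodies, was not analysed because its only probe set is also annotated to Ppid. Lung RNA came from 6 smoke-exposed C57BL/6J mice and 4 control mice, all aged 2 weeks, with 1 Affymetrix Mouse 430 2.0 array per mouse. Their sex is not given in the labels, and Xist levels, given below, differed between arrays. Smoke pups, 1 day old at the start, shared a smoke chamber with their mother, at first for 1 hour daily (7 days) and later for 2 hours daily (another 7 days), where particulate matter averaged 90 mg/m3. Control mice were kept apart in filtered air. Litter and array batch are not given in the labels, so a p-value here takes in no more than the variation among 10 arrays, whose number limits the precision of every value.

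Surfactant is a film of phospholipid and a few proteins that lowers surface tension at the air-liquid interface, so that alveoli do not collapse at low volume. Type 2 cells assemble its lipids in lamellar bodies, secrete them and take part of them back. SP-B (Sftpb) and SP-C (Sftpc) are small hydrophobic proteins, and the others, SP-A (Sftpa1) and SP-D (Sftpd), are collectins that also bind microbes. The transcription factors NKX2-1 and FOXA2 are known activators of surfactant protein genes, and alveoli of the mouse still form by septation at this age.

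To show the DNA from which these transcripts start, the 250 bases before the RefSeq start are printed for Sftpa1 and Sftpb, as genes of both protein classes, and for Etv5, whose level varied most between arrays among the representative probe sets. Windows were found for 7 of the 10 genes in the RefSeq table for GRCm38.p6, and none was matched for Sftpc, Sftpd and Napsa. Capitals mark CTCAAG, a core of the sequence that NKX2-1 binds, TGTTTAC, the core bound by FOXA factors (both searched on both strands), and TATAAA (given strand). The 3 motifs do not overlap in these windows.
Sftpa1, GRCm38.p6 chr14:41131538-41131787, plus strand: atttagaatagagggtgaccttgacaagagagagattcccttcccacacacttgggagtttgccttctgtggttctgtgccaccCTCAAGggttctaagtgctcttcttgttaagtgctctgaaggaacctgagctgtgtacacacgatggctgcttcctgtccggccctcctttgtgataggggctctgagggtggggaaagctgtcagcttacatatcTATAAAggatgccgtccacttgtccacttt
Sftpb, GRCm38.p6 chr6:72304360-72304609, plus strand: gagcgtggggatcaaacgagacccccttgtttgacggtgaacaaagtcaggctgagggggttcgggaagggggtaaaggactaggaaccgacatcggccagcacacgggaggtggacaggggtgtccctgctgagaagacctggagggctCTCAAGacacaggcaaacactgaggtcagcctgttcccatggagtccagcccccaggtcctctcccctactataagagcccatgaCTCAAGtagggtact
Etv5, GRCm38.p6 chr16:22439571-22439820, minus strand: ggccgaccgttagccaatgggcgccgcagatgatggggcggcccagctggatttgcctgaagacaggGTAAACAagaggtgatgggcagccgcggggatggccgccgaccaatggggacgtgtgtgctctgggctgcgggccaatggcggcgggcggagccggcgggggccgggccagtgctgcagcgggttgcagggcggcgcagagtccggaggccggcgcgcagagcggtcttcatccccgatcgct
Counting the last base before the start as -1, CTCAAG began at -100 and -15 in Sftpb and at -166 in Sftpa1, and TATAAA began at -30 in Sftpa1. The Etv5 window held TGTTTAC on the opposite strand, where it reads as GTAAACA and begins at -183. RefSeq gives Etv5 a second start, whose window (chr16:22438369-22438618, minus strand) held none of the 3 motifs, and the 8 windows of these genes held CTCAAG in 2, TGTTTAC in 2 and TATAAA in 1. Among 32851 windows of the same length, 13.3% held CTCAAG at least once and 0.998% at least 2 times, 3.17% held TGTTTAC and 7.59% held TATAAA. A match of letters is not a binding site.

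No surfactant gene was shown to differ between smoke-exposed and control lungs. Of the 9 genes, 0 passed (limma, adjusted p under 0.05), 0 had an unadjusted p under 0.05, and in 0 did the groups fail to overlap. Over all 13382 genes tested, 0.725% passed, 10.2% had an unadjusted p under 0.05 and 4.09% did not overlap. The median log2 difference, smoke minus control, was -0.08 over the 9 genes and 0.06 over all genes. A change in the number of type 2 cells and a change in RNA per cell cannot be told apart in whole lung.

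Arrays differed in measures of RNA quality. The ratio of the actin signal at the 3' end to that at the 5' end, which can grow as RNA breaks down, was 31.6 in smoke array 1 and 29.4 in smoke array 2. The other smoke arrays had 2.18 to 10.3, and control arrays had 3.96 to 10.4. The same ratio for Gapdh marked smoke array 2 with 9.16 but not smoke array 1 with 4.76, against 1.40 to 5.94 on the other smoke arrays and 4.82 to 5.89 on control arrays. Smoke arrays 5 and 6 had the lowest values of both ratios, 2.18 and 2.98 for actin. They were also the only smoke arrays high in Xist, a marker of sex, together with control arrays 2 and 4. The log2 level of Xist was 13.96 to 14.09 on these arrays and 8.25 to 9.38 on the others. Leaving out smoke arrays 5 and 6 thus removes every smoke lung high in Xist, while control arrays 2 and 4 stay, so Xist then differs between the groups. The differences of the surfactant genes are therefore also given with smoke arrays 1 and 2, or 5 and 6, left out where these move them; the other gene lists were not fitted without these arrays. Of the type 2 cell markers outside the member list, Cxcl15, Lyz1, Chil1 and S100g are given here as deposited intensities. These are not scaled between arrays. The brightest value of any probe set ran from 17679 to 55089 on smoke arrays and from 21896 to 28304 on control arrays. Deposited intensities of Cxcl15, a chemokine of lung epithelium, were 10217 to 24386 in smoke lungs and 10873 to 12689 in control lungs. After normalization its log2 difference was 0.23 ± 0.10 (SE). Lyz1, a lysozyme, had 13892 to 32876 in smoke lungs and 16473 to 20409 in control lungs, and Chil1 had 1600 to 4054 in smoke lungs and 1964 to 3966 in control lungs. S100g, a calcium-binding protein, ran from 145 to 4051 in smoke lungs and from 713 to 7910 in control lungs. Its rank varied widely over the arrays, from 723 to 27111.

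The hydrophobic proteins come first. Sftpc, measured by 1418639_at, lay among the 56 brightest probe sets on every array. Its deposited intensities were 35983, 37287, 21789, 29142, 14126 and 14280 in smoke lungs, against 17795, 22072, 20209 and 16890 in control lungs. Smoke arrays 1, 2 and 4 were thus above every control and smoke arrays 5 and 6 below every control. After quantile normalization, which gives each rank the same value on every array, the log2 intensity was 14.42 ± 0.13 in smoke lungs and 14.38 ± 0.06 in control lungs (SD, n = 6 and 4). The log2 difference was 0.04 ± 0.09 (SE; limma, adjusted p = 0.898), with a 95% interval of 0.897-fold to 1.18-fold. On the deposited values it was 0.30 ± 0.30 (SE; limma, adjusted p = 0.773). The brightest value of any probe set ran from 17679 to 55089 over the arrays, so the deposited spread of Sftpc moved with the upper end of each array.

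**Figure D1:**
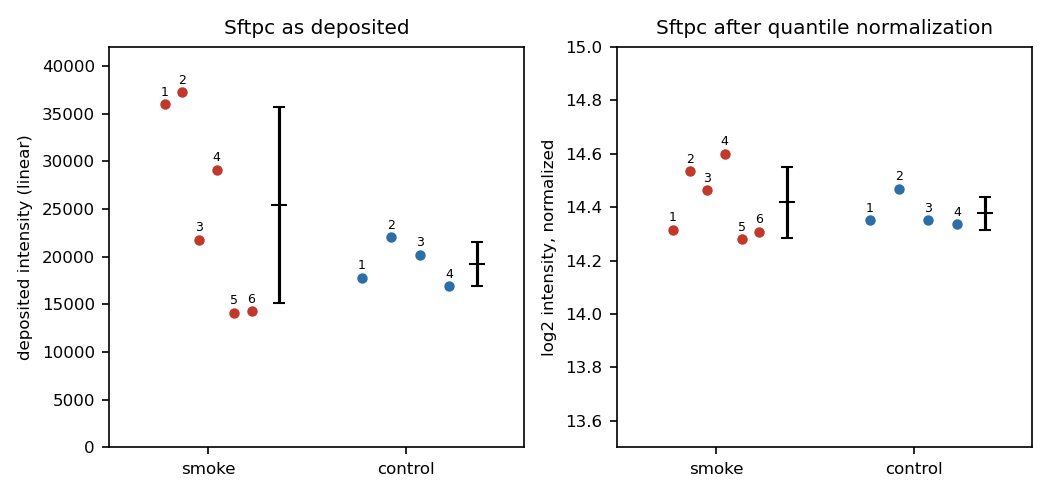
Sftpc (probe set 1418639_at) on each array, as deposited on a linear axis (left) and as log2 intensity after quantile normalization (right), with smoke lungs left of control lungs. Numbers are replicate numbers, and black bars are the mean and SD of 6 smoke and 4 control arrays; the deposited values run from 14126 to 37287, while the normalized ones stay within 14.28 to 14.60.

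Sftpb, whose product is required for breathing at birth, had a log2 intensity of 9.80 at the lowest, 10.86 at the median and 11.49 at the highest in smoke lungs, against 10.58, 10.78, 10.53 and 10.36 in control lungs. The 4 controls lay close together, and the smoke lungs fell on both sides of them, 4 above every control and 2 below. The mean was 10.75 ± 0.61 in smoke lungs and 10.56 ± 0.17 in control lungs (SD, n = 6 and 4), a log2 difference of 0.19 ± 0.29 (SE; limma, adjusted p = 0.849). Without smoke arrays 1 and 2 it was 0.40, and without smoke arrays 5 and 6, the highest for this gene, it was -0.10.

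The collectin Sftpa1 had 2 tested probe sets. At the brighter, 1422334_a_at, the log2 intensity was 12.38, 13.83 and 14.43 (lowest, median and highest) in smoke lungs, against 13.44, 13.12, 14.32 and 14.29 in control lungs. Smoke array 1 was the lowest of all, and smoke arrays 5 and 6 lay level with control arrays 3 and 4. The difference of -0.08 ± 0.38 (SE; limma, adjusted p = 0.957) was far smaller than the spread within either group. Leaving out smoke arrays 1 and 2 gave 0.31, and leaving out smoke arrays 5 and 6 gave -0.41. The other probe set, 1429626_at, gave 0.01 ± 0.22, with 13.31 ± 0.36 in smoke lungs and 13.30 ± 0.42 in control lungs (SD, n = 6 and 4).

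Sftpd, the second collectin, had a log2 intensity of 12.64, 13.37 and 13.81 (lowest, median and highest) in smoke lungs, against 13.35, 13.33, 13.85 and 13.80 in control lungs. Its 2 lowest values were those of the lungs with high actin ratios. The difference was -0.29 ± 0.23 (SE; limma, adjusted p = 0.687) with all arrays. Leaving out smoke arrays 1 and 2 gave -0.02. With all arrays and the log2 actin ratio as a covariate it was -0.23 ± 0.10 (SE; limma, adjusted p = 0.288). The difference stayed below 0 in every alternative fit. Leaving out smoke arrays 5 and 6 gave -0.52 (limma, adjusted p = 0.138), a value that passed with the replicate number as a block (adjusted p = 0.0246). The 95% interval with all arrays reached from 0.578-fold to 1.16-fold.

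**Figure D2:**
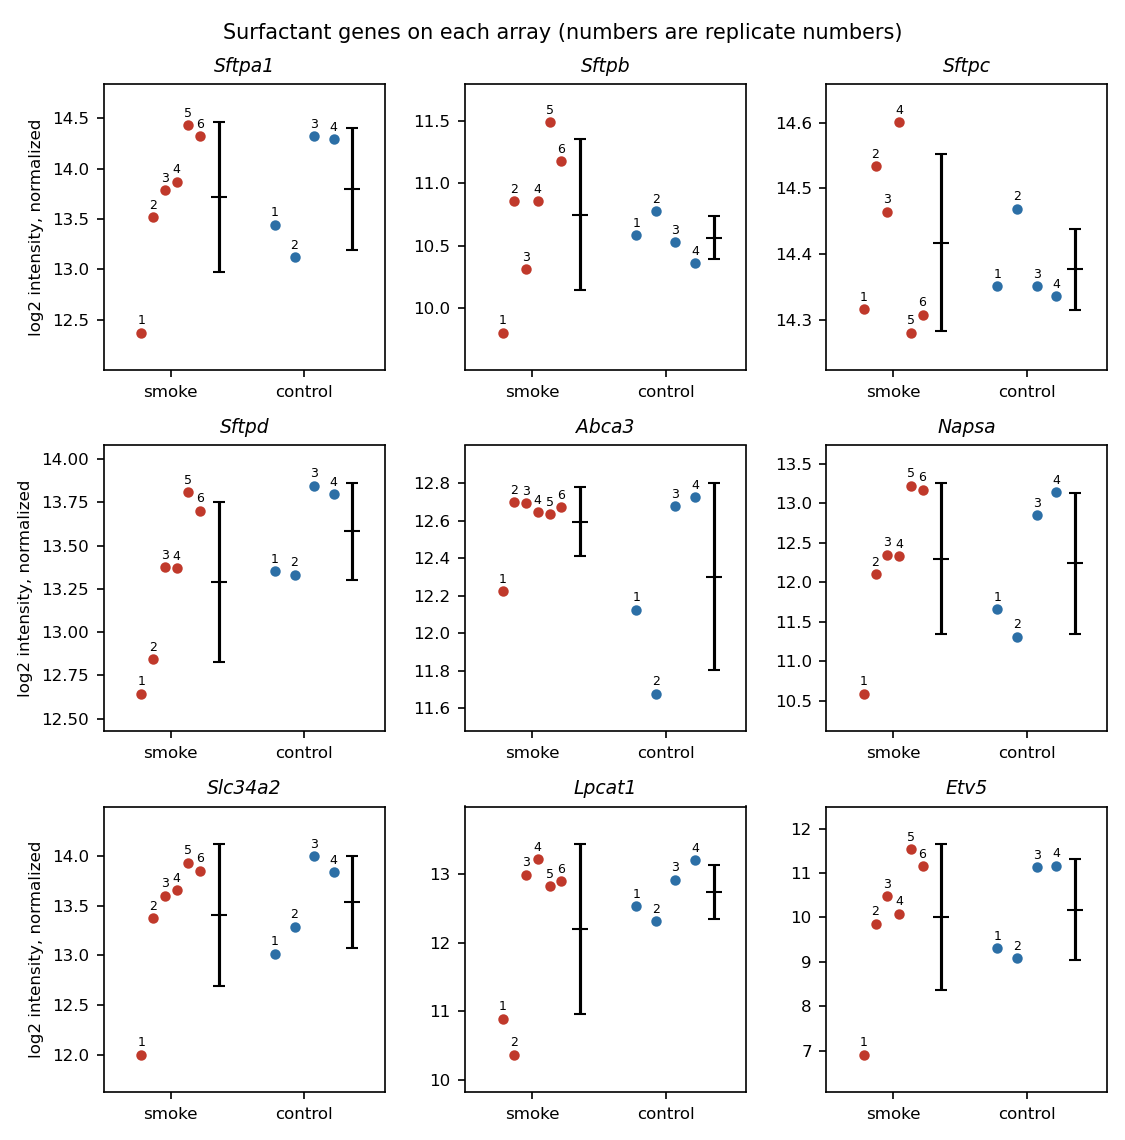
Normalized log2 intensity of the 9 surfactant genes at their brightest tested probe set, with the 6 smoke lungs left of the 4 control lungs and replicate numbers beside the points. Black bars are the mean and SD; axes differ between panels and do not start at 0. Smoke array 1 is the lowest of the 10 arrays in 6 of the 9 genes, and the groups overlap in all 9.

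Genes of lamellar bodies and surfactant processing were next. Abca3, the transporter that loads phospholipid into lamellar bodies, had a log2 intensity at 1451731_at of 12.23, 12.66 and 12.70 (lowest, median and highest) in smoke lungs, against 12.13, 11.68, 12.68 and 12.72 in control lungs. Here 5 smoke arrays lay close together and the controls were spread, with control arrays 1 and 2 low. The difference was 0.29 ± 0.20 (SE; limma, adjusted p = 0.646), the smallest adjusted p among the 9 genes. The dimmer probe sets 1425496_at and 1451869_at gave -0.08 ± 0.32 and -0.26 ± 0.32. Without smoke arrays 1 and 2 they gave 0.18 and 0.00643, and without smoke arrays 5 and 6 they gave -0.42 and -0.40.

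Napsa encodes napsin A, an aspartic protease that cleaves the SP-B precursor. At 1423590_at its log2 intensity was 10.59, 12.34 and 13.22 (lowest, median and highest) in smoke lungs, against 11.66, 11.31, 12.85 and 13.14 in control lungs. Both groups spanned a wide range, 6.20-fold in smoke lungs and 3.55-fold in control lungs. The difference was 0.06 ± 0.50 (SE; limma, adjusted p = 0.981). It was 0.53 when smoke arrays 1 and 2 were left out and -0.39 when smoke arrays 5 and 6 were. A dim second probe set, 1430744_at, gave -0.27 ± 0.45, and with those pairs left out 0.0455 and -0.50.

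Slc34a2, the sodium-phosphate cotransporter that clears phosphate from the alveolar space, had a log2 intensity of 12.00, 13.63 and 13.93 (lowest, median and highest) in smoke lungs, against 13.02, 13.29, 14.00 and 13.84 in control lungs. Smoke array 1 stood 1 log2 unit or more under every other array. The difference was -0.13 ± 0.34 (SE; limma, adjusted p = 0.911). It was 0.22 when smoke arrays 1 and 2 were left out and -0.38 when smoke arrays 5 and 6 were.

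Lpcat1 makes the saturated phosphatidylcholine of surfactant, and its probe sets disagreed most. At the brightest, 1424460_s_at, the log2 intensity was 10.90 and 10.37 on smoke arrays 1 and 2 and 12.82 to 13.21 on the other smoke arrays, against 12.53, 12.31, 12.91 and 13.19 in control lungs. The difference of -0.54 ± 0.54 (SE; limma, adjusted p = 0.759) became 0.24 without those 2 arrays and -0.87 without smoke arrays 5 and 6. At 1424459_at smoke arrays 1 and 2 read 7.84 and 6.41, against 11.88 to 12.62 on the other smoke arrays, a span of 73.8-fold within the smoke group. That probe set had a difference of -0.90 ± 1.18, which became 0.81 without those arrays and -1.87 without smoke arrays 5 and 6. By contrast, 1420293_at read 9.75 and 9.86 there, within the range of the other arrays, and gave -0.25 ± 0.24. The low readings thus followed the actin ratio at some probe sets of the gene and not at others; the part of RNA quality in them was not tested. The remaining tested probe set, 1451359_at, gave -0.16 ± 0.50, which became 0.48 without those arrays and -0.53 without smoke arrays 5 and 6.

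Etv5, an ETS transcription factor that acts downstream of FGF receptors and maintains type 2 cells in the mouse, varied most among the representative probe sets. At 1428142_at its log2 intensity was 6.92, 10.28 and 11.53 (lowest, median and highest) in smoke lungs, against 9.31, 9.09, 11.13 and 11.17 in control lungs. The controls fell into a low pair and a high pair, 4.23-fold from lowest to highest. The difference was -0.17 ± 0.79 (SE; limma, adjusted p = 0.956), with a 95% interval of 0.269-fold to 2.94-fold, so a change of 2 log2 units either way lay outside it and a change of 1 log2 unit did not. Without smoke arrays 1 and 2 it was 0.64, and without smoke arrays 5 and 6 it was -0.84. The dim probe set 1420998_at gave -0.07 ± 0.29 and did not follow the first: smoke array 1, lowest at the first, was highest at this one with 7.44.

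The filter on dim probe sets left out 3 member probe sets. Sftpc 1438290_x_at, Lpcat1 1420294_at and Etv5 1450082_s_at had log2 differences of -0.06, 0.27 and 0.42, and exact two-sided permutation p-values of 0.938, 0.833 and 0.624, where 0.00476 is the smallest that 6 against 4 arrays allow. The Lpcat1 probe set was at the floor on 6 of 10 arrays. Etv5 1450082_s_at was again lowest in control arrays 1 and 2, among the controls, with 4.83 and 4.39, against 6.46 and 7.73 in control arrays 3 and 4.

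**Figure D3:**
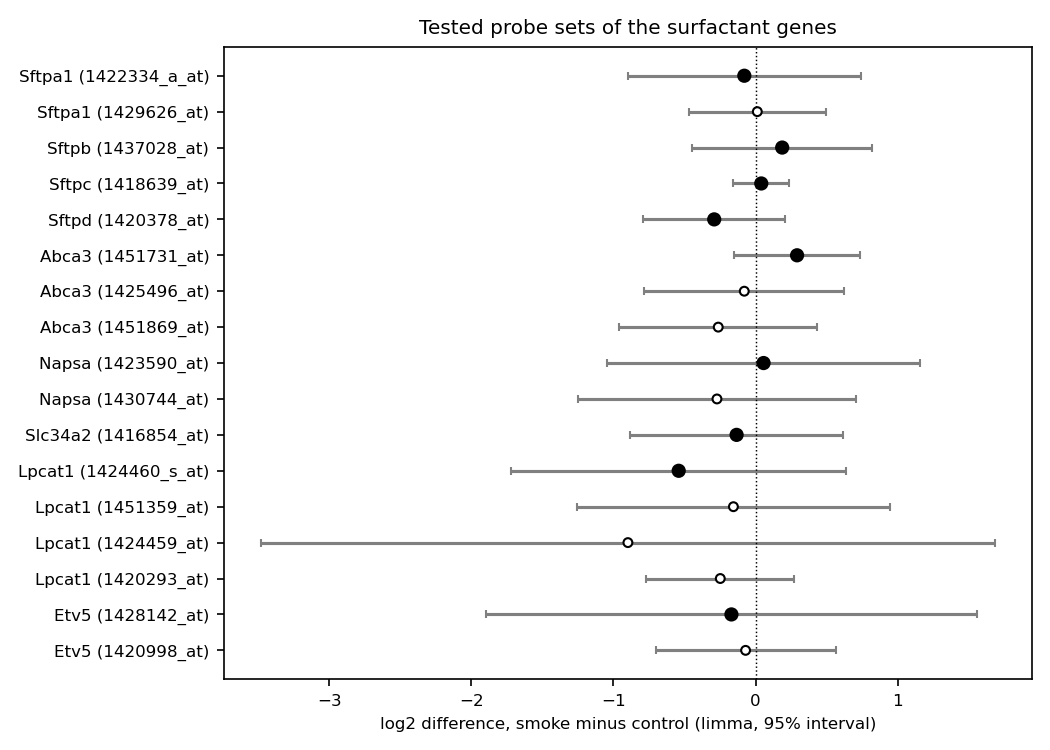
Log2 difference, smoke minus control, with its 95% interval (limma) for the 17 tested probe sets of the surfactant genes. Filled points are the probe set that represents each gene and open points the others; every interval includes 0, and those of Lpcat1 1424459_at and Etv5 1428142_at are the widest.

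Several surfactant genes varied together from mouse to mouse, in both groups. Over the 10 arrays the log2 intensity of Etv5 had a Pearson r of 0.99 with Sftpa1, 0.97 with Napsa, 0.97 with Slc34a2 and 0.87 with Sftpd. Spearman's rho for these pairs was 0.95, 0.99, 0.89 and 0.89. Without smoke arrays 1 and 2 the r values were 0.98, 0.98, 0.93 and 0.89 over 8 arrays. The share of genes correlating with Etv5 as closely was 0.00747% for Sftpa1, 0.0374% for Napsa, 0.0448% for Slc34a2 and 2.86% for Sftpd. Each share leaves out Etv5 but counts the named gene itself and any other member as close. The share for Sftpa1 was thus Sftpa1 alone. Without smoke arrays 1 and 2 these shares were 0.0448%, 0.0149%, 0.508% and 1.20%. The median r of all genes with Etv5 was -0.08. Abca3, Lpcat1 and Sftpb had r of 0.64, 0.65 and 0.64 with Etv5, which 16.3%, 15.8% and 16.4% of all genes matched or passed, and Sftpc did not follow it (r = -0.12). These are descriptions, made after the values were seen, of 36 pairs of genes measured on the same arrays, which share RNA quality and scaling.

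The same arrays were high or low for several genes. Smoke array 1 was lowest and smoke array 5 highest for Sftpa1, Sftpb, Napsa and Etv5, and both control arrays 3 and 4 lay above control arrays 1 and 2 for 7 of the 9 genes, all but Sftpb and Sftpc, an order that 19.2% of all genes had too. The lowest value was in smoke array 1 for 6 of these 9 genes and for 22.2% of all genes tested, and the highest was in smoke array 5 for 4 of these 9 and for 12.9% of all. Smoke array 1 held the highest value of 25.6% of all genes and of 0 of these 9. The actin ratio was 9.28 and 3.96 in control arrays 3 and 4, where these genes were higher, and 9.70 and 10.4 in control arrays 1 and 2. The Gapdh ratio was 5.08 and 4.82 against 5.27 and 5.89. In smoke arrays 1 to 6 the actin ratio was 31.6, 29.4, 9.26, 10.3, 2.18 and 2.98. The mean standardised level of the 9 genes was -1.72, -0.23, 0.18, 0.45, 0.71 and 0.59 there. It was -0.46, -0.53, 0.51 and 0.49 in control arrays 1 to 4. Smoke arrays 2 and 4 thus had higher levels than control array 1 at higher actin ratios. The part of RNA quality in the shared variation was not tested. Xist was high in control arrays 2 and 4, 1 of each pair.

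**Figure D4:**
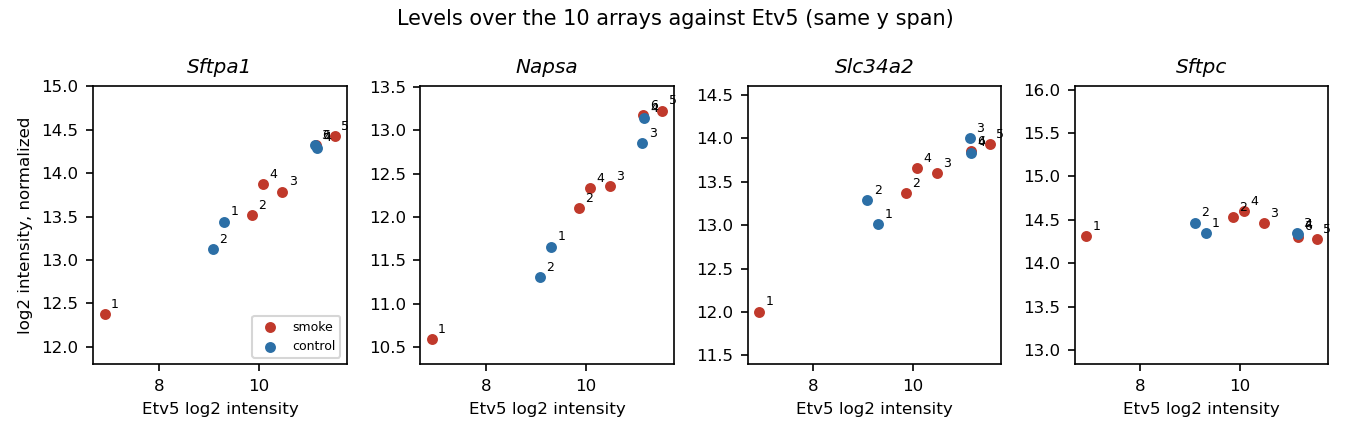
Normalized log2 intensity of Sftpa1, Napsa, Slc34a2 and Sftpc on each of the 10 arrays against that of Etv5, smoke lungs in red and control lungs in blue, with replicate numbers. Every y axis spans the same number of log2 units; the first 3 genes rise with Etv5 in both groups, and Sftpc stays between 14.28 and 14.60.

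The spread among controls alone was wide for the same genes. Against 4405 genes with a mean log2 intensity of at least 10, the control SD of Etv5, 1.13, was larger than that of 99.7%, and that of Napsa, 0.89, larger than 99.6%. Sftpa1, Abca3 and Slc34a2 followed at 98.6%, 97.0% and 95.6%, and Lpcat1 at 92.1%. Sftpd at 75.3% and Sftpb at 41.2% were nearer the middle, and Sftpc was at 4.43%, among the least variable, where the normalization of the brightest ranks also narrows its range. Median SDs over those 4405 genes were 0.37 in smoke lungs and 0.19 in control lungs.

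By the likeness rule, the genes outside the list closest to the surfactant genes' mean profile over the 10 arrays were Morn5 (r = 0.97), Pdzd8 (r = 0.97), Cd320 (r = 0.97), Mgst1 (r = 0.97) and Tfrc (r = 0.96). Mgst1 is a microsomal glutathione transferase, Tfrc the transferrin receptor and Cd320 the receptor for transcobalamin. Mgst1 ran from 12.37 to 13.71 in smoke lungs and from 12.82 to 13.66 in control lungs, with a difference of -0.01. Of the members, Slc34a2, Etv5 and Sftpa1 lay closest to the mean profile that they helped form (r = 0.98 each) and Sftpc lay apart from it (r = 0.01).

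Other genes of the pathway were taken from 5 lists, and 0 of their members passed (limma, adjusted p under 0.05). Over all genes tested, 0.725% passed and 10.2% had an unadjusted p under 0.05, the shares to set beside each list. Of the lamellar body and recycling list, 13 of 16 genes were tested, 2 had an unadjusted p under 0.05, and the median difference was -0.05. Ctsh, a cathepsin that processes SP-B and SP-C precursors, had 13.17 ± 0.20 in smoke lungs and 13.62 ± 0.11 in control lungs (SD, n = 6 and 4), a difference of -0.45 ± 0.12 (SE; adjusted p = 0.211). Lyst, which regulates lysosome-related organelles, was at -0.70 ± 0.23 and Hps1, a subunit of a complex that forms such organelles, at 0.71 ± 0.43 (adjusted p = 0.352 and 0.588).

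Lipid synthesis genes numbered 25 tested of 27, with 5 under an unadjusted p of 0.05 (10.2% of all genes) and a median of -0.06. Chpt1, which forms phosphatidylcholine from diacylglycerol, came nearest to the threshold, with 10.48 ± 0.21 in smoke lungs and 11.36 ± 0.39 in control lungs (SD, n = 6 and 4) and a difference of -0.89 ± 0.20 (SE; adjusted p = 0.0997). Lpl, lipoprotein lipase, was at -0.61 ± 0.17 and Srebf1, a regulator of lipid synthesis genes, at 0.84 ± 0.31 (adjusted p = 0.227 and 0.399). These 3 did not move in 1 direction.

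Among transcription factors of type 2 cells, 17 of 21 were tested, 1 had an unadjusted p under 0.05 (10.2% of all genes) and the median was -0.16. That 1 was Cebpd, a glucocorticoid-responsive C/EBP factor, at -0.73 ± 0.27 (adjusted p = 0.396), followed by Cebpa, needed for type 2 cell maturation in the mouse, at 0.70 ± 0.39 and Gata6 at -0.72 ± 0.42. In the list of FGF signalling genes 13 of 18 were tested, 3 had an unadjusted p under 0.05 and the median was 0.08. Spry1, a feedback inhibitor of receptor tyrosine kinases, was at 0.72 ± 0.18 (adjusted p = 0.146), with 10.12 ± 0.19 in smoke lungs and 9.40 ± 0.23 in control lungs (SD, n = 6 and 4). Fgfr4 was at 0.48 ± 0.21 and Dusp6, an ERK phosphatase, at -0.28 ± 0.13 (adjusted p = 0.482 and 0.497).

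The last list held other markers of type 2 cells, of which 27 of 30 were tested. Of these, 2 had an unadjusted p under 0.05 (10.2% of all genes), and the median was 0.10. Egfl6 was at 0.59 ± 0.25, Cxcl15 at 0.23 ± 0.10 and Zdhhc3 at 0.47 ± 0.23 (adjusted p = 0.459, 0.468 and 0.514).

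**Figure D5:**
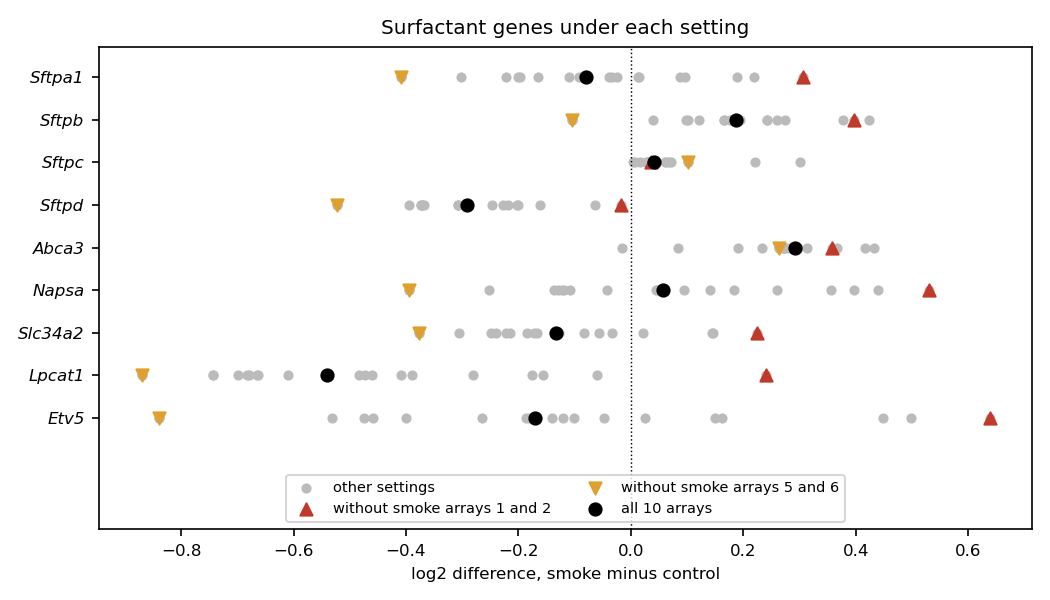
Log2 difference, smoke minus control, of the 9 surfactant genes under each processing setting (grey), with all 10 arrays (black), leaving out smoke arrays 1 and 2 (red) and leaving out smoke 5 and 6 (yellow). Leaving out either pair of arrays moves most genes in opposite directions, Etv5 to 0.64 and to -0.84 and Napsa to 0.53 and to -0.39, while Sftpc stays between 0.00 and 0.30.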

How the data were processed

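Total RNA from each lung was extracted with Trizol, amplified, labelled as cRNA and hybridised to 1 array, per the labels' protocols. The deposited values are linear intensities, 1 for each probe set on each array; the summarising program is not given in the sources used here, and no detection calls were used. The arrays' median log2 values lay between 7.01 and 7.70, so log2 values (the 1 value of 0 set to the smallest positive one) were quantile normalized and given a floor at their 10th percentile (an intensity of 15.8). The table holds 45101 probe sets; after removal of 64 controls, the 60% with the highest mean level (27022) entered the test. A gene was represented by its brightest tested probe set with 1 symbol, giving 13382 genes. The 2 groups were compared with limma (version 3.58.1, R 4.3.3; eBayes with trend), two-sided, with Benjamini-Hochberg adjustment over all tested probe sets and a threshold of 0.05; the fit was tested on simulated arrays. Plots used matplotlib 3.10.9.

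The surfactant genes and all lists were chosen with earlier results of these data known. Named genes were every member, from each list those past the threshold or else the 3 of smallest p, and the 5 genes most like the members' mean profile; of each list of cell type markers, its count and up to 2 defining markers. The type 2 markers Lyz1, Chil1 and S100g and the neutrophil gene Mmp8, outside that rule, were named with their values known. Promoter motifs were chosen after the sequences were read. Alternatives changed the scaling, the filter on dim probe sets, the floor, the variance trend, the weighting of arrays, a replicate block, covariates (actin ratio or Xist), the arrays included, the probe set taken for a gene, and the calling rule that the submitters state. Over pairs of arrays the correlation was 0.747 to 0.975, and 0 pairs were identical.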

Additional observations from a re-analysis of the deposited data

Results flagged for a closer look

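Of 34 groups of surfactant probe set values examined (17 tested probe sets in smoke and in control lungs), 8 held 1 array far from the others. Chance flags about 1 in 20 groups. The groups share arrays and genes, so 1 deviating array can flag several, and that rate is no test of an excess here. Smoke array 1 was far below the other smoke arrays at 4 probe sets, with log2 intensities of 12.59 for Sftpa1 (1429626_at), 12.23 for Abca3 (1451731_at), 12.00 for Slc34a2 and 6.92 for Etv5 (1428142_at). Smoke array 2 was far below at 2 dim probe sets, at 5.87 for Abca3 (1451869_at) and 5.83 for Napsa (1430744_at). Those are the arrays with the high actin 3' to 5' ratios, 31.6 and 29.4 (4.76 and 9.16 for Gapdh), whose part in these values was not tested. Control array 2 was flagged above the other controls at 14.47 for Sftpc (1418639_at) and 10.23 for Lpcat1 (1420293_at), where the next control had 14.35 and 9.85. These gaps are large only beside the narrow range of the other controls. For Sftpc, quantile normalization also compresses that range.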

How the results depend on the processing

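The count of surfactant genes past the threshold was 0 with all arrays and stayed 0 in each single omission and in each other setting but 1, the replicate block over arrays numbered 1 to 4, where it was 1. The replicate numbers share no stated litter or batch, and same-numbered arrays were not taken as pairs. Over all tested probe sets, deviations of same-numbered smoke and control arrays from their group means correlated at -0.07, 0.17, -0.06 and -0.05. For the surfactant genes, however, the mean standardised level was lower in arrays 1 and 2 than in arrays 3 and 4 in both groups. It was -0.46, -0.53, 0.51 and 0.49 in control arrays 1 to 4, and -1.72, -0.23, 0.18 and 0.45 in smoke arrays 1 to 4. A shared litter or batch was not tested. The gene called under the block was Sftpd, at -0.52 (limma, adjusted p = 0.0246); without the block the same arrays gave an adjusted p of 0.138, and over its 25 alternatives its adjusted p ran from 0.0246 to 0.984. Over all genes, 3 were called higher and 94 lower with all arrays, against 444 and 344 with the block and 418 and 324 on those arrays with no block. The counts were 226 and 286 by the submitters' rule, 151 and 220 with the actin covariate, 41 and 142 with array weights, 14 and 112 with the mean of probe sets, 10 and 115 without smoke arrays 1 and 2, 10 and 93 with a stricter filter, 8 and 94 as deposited, 7 and 88 with no filter, 6 and 95 with the Xist covariate, 5 and 102 with a higher floor and 5 and 76 with median centring. Single omissions gave 1 to 6 higher and 58 to 98 lower. The median of the surfactant genes was 0.31 without smoke arrays 1 and 2 and -0.39 on arrays numbered 1 to 4.

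Of 407 alternative values for tested probe sets, 345 kept direction and side of the threshold, 1 passed it, and 61 changed sign, none of those past the threshold. Array weights gave 0.50 for Etv5, 0.22 for Sftpa1, 0.14 for Slc34a2, 0.18 for Abca3 1425496_at, 0.0106 for Napsa 1430744_at, and 0.27 and 0.27 for Lpcat1 1451359_at and 1424459_at. Without smoke arrays 1 and 2 the values were 0.64 for Etv5, 0.24 for Lpcat1, 0.31 for Sftpa1, 0.22 for Slc34a2, 0.18 and 0.00643 for Abca3 1425496_at and 1451869_at, 0.0455 for Napsa 1430744_at, and 0.48 and 0.81 for Lpcat1 1451359_at and 1424459_at. Without smoke arrays 5 and 6, with or without the replicate block, they were -0.39 for Napsa, -0.10 for Sftpb, -0.0374 for Sftpa1 1429626_at, 0.00314 for Lpcat1 1420293_at and 0.14 for Etv5 1420998_at. As deposited Napsa was -0.0416 and Etv5 1420998_at 0.00896, and with median centring Napsa was -0.12 and Sftpa1 1429626_at -0.0504. The actin covariate gave 0.0252 for Etv5 and 0.0152 for Sftpa1. With the mean of a gene's probe sets Abca3 was -0.0165 and Napsa -0.11, and without _x_at, _s_at and _a_at probe sets Sftpa1 was 0.0125.

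Over single omissions Etv5 ran from -0.53 to 0.45, Sftpa1 from -0.30 to 0.19, Slc34a2 from -0.31 to 0.15, Napsa from -0.25 to 0.40, Sftpa1 1429626_at from -0.18 to 0.16, Abca3 1425496_at from -0.24 to 0.0801, Napsa 1430744_at from -0.41 to 0.12, Lpcat1 1451359_at from -0.41 to 0.20 and Etv5 1420998_at from -0.16 to 0.11.

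The number of arrays and the spread within groups limit these results: a difference that misses the threshold is not shown to be absent, and the intervals above give the sizes that remain possible. No stated background exists for dim probe sets, and the brightest ranks, Sftpc above all, have a compressed range after quantile normalization.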

Other observations

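Markers of other lung cell types were measured in 12 lists. Over all 13382 genes tested, 0.725% passed (limma, adjusted p under 0.05) and 10.2% had an unadjusted p under 0.05. None of the alveolar type 1 (12 tested), club (8), ciliated (7), endothelial (10) or fibroblast (9) markers passed (limma, adjusted p under 0.05), and 1, 0, 0, 0 and 2 of them had an unadjusted p under 0.05. Median log2 differences in these lists were -0.12, 0.25, -0.14, -0.25 and -0.16. The club cell markers had the highest of these medians, with 7 of 8 differences above 0, against 7617 of 13382 over all genes. Deposited intensities, given next, are not scaled between arrays, and the brightest value of any probe set ran from 17679 to 55089. The secretoglobins Scgb1a1 and Scgb3a2 had 14665 to 45146 and 13750 to 31127 in smoke lungs, against 17486 to 22794 and 13203 to 19783 in control lungs. Ager, the receptor that marks type 1 cells, had 14755 to 34253 in smoke lungs and 16991 to 21893 in control lungs, and the water channel Aqp5 had 2315 to 3141 in smoke lungs and 1378 to 3140 in control lungs.

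Over 10 markers of macrophages and monocytes the median was -0.49. Of these, 0 were past the threshold and 2 under an unadjusted p of 0.05, against 0.725% and 10.2% of all genes. Alveolar macrophages clear surfactant, and Marco, a scavenger receptor of these cells, had deposited intensities of 21.9 to 343 in smoke lungs and 272 to 375 in control lungs, while Adgre1 had 705 to 2067 in smoke lungs and 703 to 1406 in control lungs. Neutrophil markers fell in 3 of 7 tested genes, S100a9, S100a8 and Mmp8 (limma, adjusted p under 0.05). Summed over the 7 genes, the normalized intensity was 7868 to 17426 in smoke lungs and 25042 to 36678 in control lungs. The remaining lists, of B cells, T and natural killer cells, erythroid cells, cardiac muscle and brown fat, had 7, 5, 3, 6 and 3 genes tested. Their medians were 0.53, -0.20, -0.14, -0.15 and -0.34. In these lists 0 genes were past the threshold, and 4, 0, 0, 1 and 0 were under an unadjusted p of 0.05. The brown fat markers Ucp1 and Cidea had deposited intensities of 8.90 to 68.8 and 8.20 to 86.0 in smoke lungs, against 12.2 to 643 and 12.4 to 224 in control lungs.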
